A study of Sus scrofa with 6 samples.

Results

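MiR-132 and miR-212 are microRNAs (miRNAs) cut from neighbouring hairpins of a single primary transcript. Both were measured in the left atrium (LA) of pigs after brief, pacing-induced atrial fibrillation (AF). The probes named ssc-miR-132 and ssc-miR-212 were taken by name, which gave 2 of the 322 pig miRNA probes on the array and 18 of the 2898 miRNA spots, 9 repeat spots for each probe. RNA came from the LA of 3 sham-operated (control) animals and 3 animals of the paroxysmal AF (PAF) group, here called paced, with 1 Cy3 array per animal, and the numbers below are the replicate numbers of the labels. Paced animals received esmolol, a beta blocker that slows the ventricle, and rapid burst pacing of the right atrium through a catheter electrode, and the LA was taken the next day. Sham animals were not burst-paced, and the methods do not say whether they received esmolol. Effects of the drug and of pacing therefore cannot be told apart. The study's methods describe Large White pigs of 3 months, whereas the labels speak of neonatal piglets kept in a nursery. The design asks whether LA miRNA levels differ once short AF episodes have ended by themselves.

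Transcription of the miR-132 and miR-212 locus is driven by CREB, a cAMP-responsive factor, and both miRNAs are known for roles in neurons. In the heart they are known to be induced by angiotensin II and to promote cardiomyocyte hypertrophy by repressing FOXO3, a transcription factor that restrains growth. A miRNA finds its targets mainly through its seed, the bases near its 5′ end, and each hairpin can release a miRNA from either arm. The products most often studied in other mammals share a seed, while the opposite arm of the miR-212 hairpin has a different one.

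The target sequences in the deposited probe annotation are shown because they decide which product each spot reads. They are printed 5′ to 3′, with the seed (bases 2 to 8) in capitals.
ssc-miR-132: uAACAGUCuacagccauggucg
ssc-miR-212: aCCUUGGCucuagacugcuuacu
The target of ssc-miR-132 is 22 bases long with a GC content of 50%, and that of ssc-miR-212 is 23 bases long with 47.8%. Their seeds differ, and the letters AACAGUC stand nowhere in the ssc-miR-212 target. Each seed belonged to 1 of the 322 targets, so no other probe on the array shares a seed with either miRNA. The 2 measurements are therefore not repeats of a single seed family. The ssc-miR-212 name carries no arm, and its arm was not tested, since no hairpin sequence was used here. Its target lacks the seed of ssc-miR-132, so it is not the miR-212 product described above as sharing that seed.

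As letters, both targets were no closer to each other than to a typical target. They were 13 substitutions, insertions or deletions apart, equal to the median of 13 over the 321 other targets, and the longest run they share is 4 bases. As strands that can pair, they stood at the top of the array. Antiparallel pairing of both targets was predicted to give 15 base pairs and -22.5 kcal/mol, joining bases 3 to 21 of ssc-miR-132 with bases 1 to 18 of ssc-miR-212. This was the lowest energy among all 321 partners of either miRNA, where the medians were -8.0 kcal/mol for ssc-miR-132 and -8.6 kcal/mol for ssc-miR-212. The next lowest energies were -21.1 kcal/mol for ssc-miR-132 with miR-4331 and -19.6 kcal/mol for ssc-miR-212 with miR-744. These energies describe the letters and do not show that the strands meet on the array or in the cell. Among possible cross-reacting targets, the closest to ssc-miR-132 were miR-17-5p, miR-194a, miR-20b and miR-383, and the closest to ssc-miR-212 was miR-1306-3p, all at a distance of 8. In the pig gene table of the Sscrofa11.1 assembly, MIR132 and MIR212 are adjacent with 0 genes between them, and OVCA2 and HIC1 flank the pair.

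Each array carries 786 empty spots, which served as its background. The empty-spot median ran from 64.7 to 214 scanner units on the sham arrays and from 242.5 to 399 on the paced arrays, so background and group moved together. Scanner units are median spot intensities on a linear scale with background included. A probe counts as well above background where its 9 spots have a median over 3 SD higher than that of the empty spots, SD being their spread on that array. Between 104 and 175 probes per array met this limit, 104 of the 322 on every array and 143 nowhere.

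The ssc-miR-132 probe was weak, and well above background in 2 of 3 sham animals and 0 of 3 paced animals. Of all 322 probes, 126, 175 and 162 passed in sham 1, 2 and 3, and 104, 158 and 136 in paced 1, 2 and 3. Other probes had the same pattern of 2 sham and 0 paced animals, among them miR-7, miR-27b-5p and miR-362. The 9 spots of ssc-miR-132 had a median of 266, 132 and 169 scanner units in sham 1, 2 and 3, and of 387, 322 and 293 units in paced 1, 2 and 3. The higher scanner values of the paced arrays went with their higher background. Above the empty-spot median of its own array, ssc-miR-132 lay by 52.2, 67.0 and 52.1 units in the sham animals and by -11.8, 79.5 and 31.7 units in the paced animals. The sham animals were close together, and the paced animals ran from below the empty spots to the highest value of the 6. In units of the SD of the empty spots, the distances were 0.861, 8.02 and 3.23 in the sham animals and -0.234, 2.58 and 0.927 in the paced animals. Only sham 2 and sham 3 passed the limit of 3 SD, and with a limit of 2 SD paced 2 passed as well.

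Empty spots beside the probe gave a closer reference. Against the 15 nearest empty spots, the median signal of ssc-miR-132 was 60.3, 64.2 and 40.0 units higher in sham 1, 2 and 3. In paced 1, 2 and 3 the difference was -17.4, 57.5 and 15.8 units. Paced 2 thus lay within the sham range on this measure, paced 3 below it, and paced 1 below its own surroundings. All 9 spots exceeded their own neighbours on every array except paced 1, where 1 of 9 did. In SD of the local background, the signal stood at 3.00, 15.6 and 4.22 in the sham animals and at -0.770, 3.66 and 0.848 in the paced animals. Sham 1 fell just short of the limit before rounding, so that sham 2, sham 3 and paced 2 were above the local background. The repeat spots of ssc-miR-132 had a coefficient of variation of 5.02% to 10.5% on an array.

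The ssc-miR-212 probe was well above background on 0 of 6 arrays, against all empty spots and against the nearest ones, and also with the limit of 2 SD. Its spots had a median of 175, 66.6 and 116 scanner units in sham 1, 2 and 3, and of 312, 272 and 245 units in paced 1, 2 and 3. Relative to the empty-spot median these were -39.0, 1.95 and -1.02 units in the sham animals and -86.9, 29.7 and -16.2 units in the paced animals. Only sham 2 and paced 2 were on the positive side. Against the 15 nearest empty spots the signal was -39.2, 1.84 and -1.15 units in the sham animals and -69.0, 9.91 and -12.6 units in the paced animals. In sham 1, paced 1 and paced 3, none of its 9 spots exceeded its own neighbours, while 8 of 9 did in paced 2. The coefficient of variation over its spots was 4.69% to 8.75%, so the repeat spots were as even as those of ssc-miR-132 while holding no signal above the empty spots. All values of ssc-miR-212 below are therefore values at background and give no level of the miRNA.

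**Figure D1:**
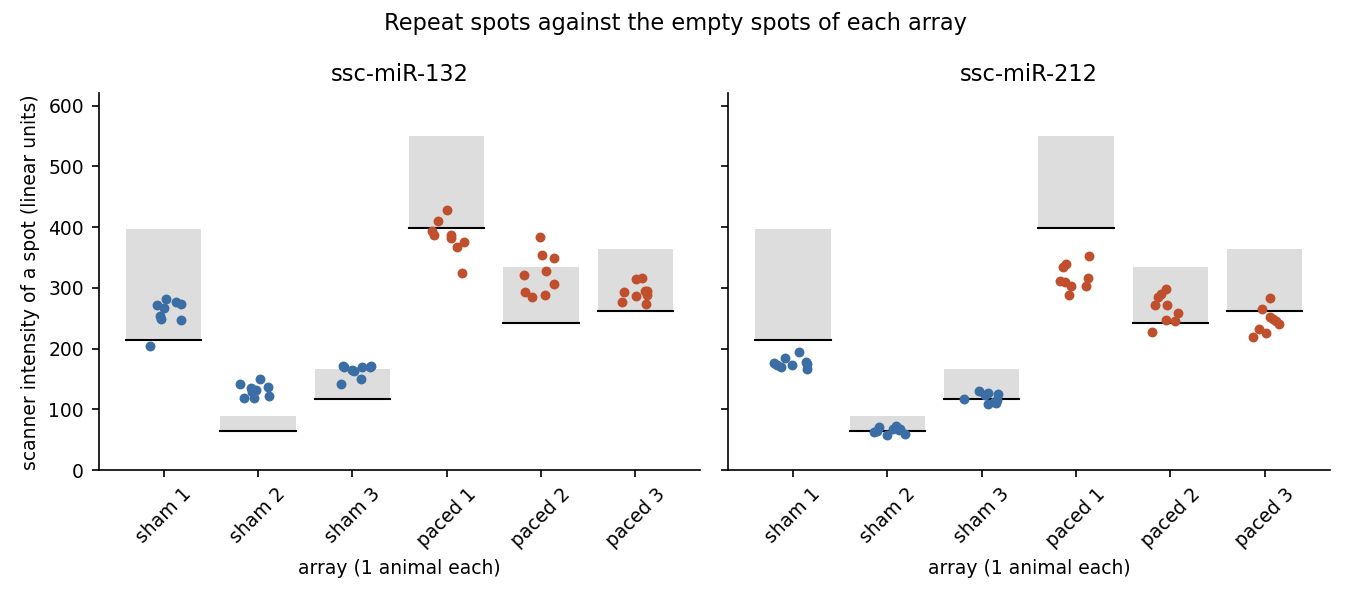
Scanner intensity (linear units) of the 9 repeat spots of ssc-miR-132 and ssc-miR-212 on each array, sham animals in blue and paced animals in orange. The black line is the median of the 786 empty spots of that array and the grey box reaches 3 SD above it; the spots of ssc-miR-132 lie mostly above the line except in paced 1, and those of ssc-miR-212 lie around or below it.

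**Figure D2:**
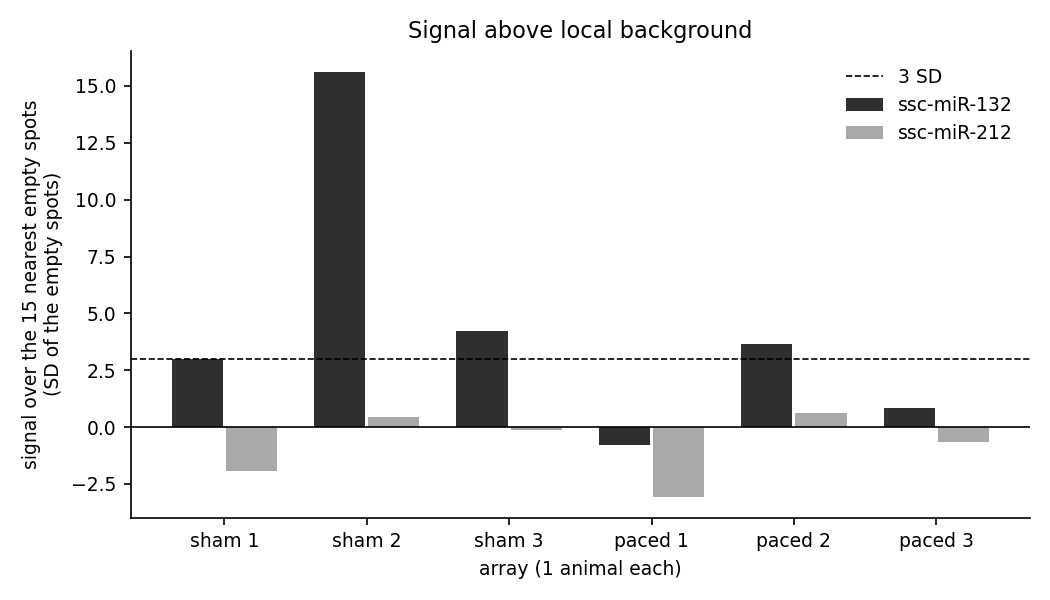
Median signal of ssc-miR-132 (dark bars) and ssc-miR-212 (grey bars) over the 15 nearest empty spots, for each array, in units of the local SD (the spread of empty spots around the empty spots nearest to them). Sham 2 stands at 15.6 for ssc-miR-132, sham 3 and paced 2 are also above the dashed line at 3 SD, and no bar of ssc-miR-212 reaches it.

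Paced and sham animals were then compared on normalized log2 values, for which the scanner values were background-corrected and quantile-normalized between arrays. The normalized value of ssc-miR-132 was 7.39, 7.68 and 7.35 in sham 1, 2 and 3 and 7.47, 7.24 and 7.32 in paced 1, 2 and 3. The groups overlapped, with sham 2 highest and paced 2 lowest. Paced 1 ranked next to sham 2 although its spots lay below the empty-spot median, so the order of the normalized values is not the order of the signal above background. Sham animals averaged 7.47 ± 0.18 and paced animals 7.34 ± 0.11 (SD, n = 3 each). The paced minus sham difference was -0.13 on the log2 scale (SE 0.11, 95% interval -0.39 to 0.13), with an adjusted p of 0.725 in limma. It did not exceed the spread between animals, and without sham 2 it was -0.03. By the limit of 3 SD over all empty spots, the ssc-miR-132 probe was not above background on any paced array (paced 2 was, against the nearest ones), and the bound that this allows was below 1, so no fold is given.

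The normalized value of ssc-miR-212 was 6.78, 6.77 and 6.75 in sham 1, 2 and 3 and 6.78, 6.77 and 6.83 in paced 1, 2 and 3. The values overlapped and paced 3 was highest. Sham animals averaged 6.77 ± 0.02 and paced animals 6.79 ± 0.03 (SD, n = 3 each). Paced minus sham, the difference was 0.03 (SE 0.06, 95% interval -0.12 to 0.17), with an adjusted p of 0.885 in limma. Its spread within groups was among the smallest on the array, at percentile 1.55 of the 322 probes, while ssc-miR-132 stood at percentile 63.4. The correction adds 50 units to every spot before the logarithm, which compresses differences between dim spots, so this spread is no measure of how even the miRNA was. The intervals of both probes are on this compressed scale and set no limit on a fold change of either miRNA.

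Neither of the 2 miRNAs passed an unadjusted limma p of 0.05, which 10.6% of all probes did. None passed after adjustment, where the share over all probes was 0%, and the lowest adjusted p on the array was 0.134. For neither did the paced and sham values stand clear of each other, which held for 17.4% of all probes. By its unadjusted limma p, ssc-miR-132 ranked 123 and ssc-miR-212 ranked 241 of 322. Over all probes the median difference was 0.00, with 165 higher and 157 lower in paced animals. Quantile normalization gives each array the same distribution of spot values, so this median and split are largely set by it. In this bulk tissue, fewer cells of a type and less RNA per cell cannot be told apart.

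The groups were also compared in the processed values that the authors deposited, a linear scale with background removed by a method not given in the sources used here. On that scale ssc-miR-132 was 53.0, 90.8 and 53.6 units in sham 1, 2 and 3 and 67.2, 49.3 and 51.1 units in paced 1, 2 and 3. The other probe, ssc-miR-212, was 2.44, 3.88 and 7.25 units in the sham animals and 0.546, 4.33 and 6.91 units in the paced animals. Sham 2 was again highest and paced 1 second for ssc-miR-132, and the groups of both miRNAs overlapped. Means were 65.8 ± 21.7 (SD, n = 3) and 55.9 ± 9.85 (SD, n = 3) units for ssc-miR-132 in sham and paced animals. For ssc-miR-212 they were 4.52 ± 2.47 and 3.93 ± 3.20 units (SD, n = 3 each).

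**Figure D3:**
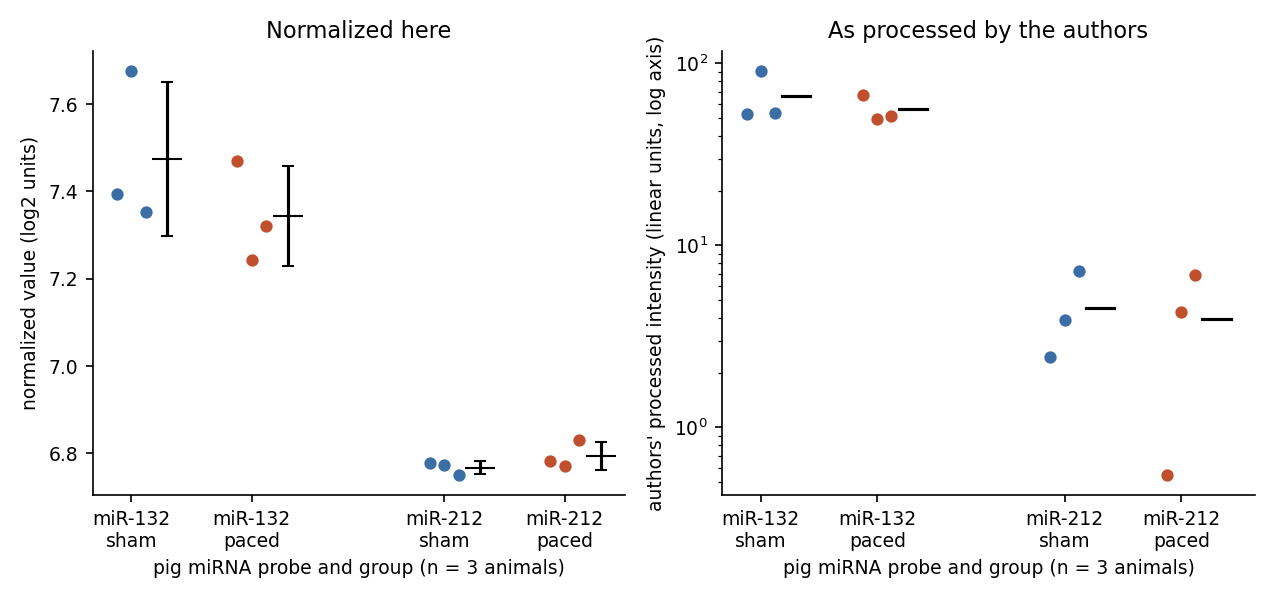
Values of ssc-miR-132 and ssc-miR-212 in sham (blue) and paced (orange) animals. On the left, normalized log2 values with mean and SD beside the points; on the right, the authors' processed intensities on a log axis with a bar at the mean. Paced and sham points overlap for both probes in both panels.

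The direction of both differences depended on the scale. When each array was scaled to the median of the 104 probes above background in place of quantile normalization, the difference became 0.40 for ssc-miR-132 (adjusted p = 0.0594 in limma) and 0.61 for ssc-miR-212 (adjusted p = 0.00441 in limma). The median of all probes moved by 0.44 under that scaling, and relative to it the differences were -0.03 and 0.18. With no normalization the differences were 0.24 and 0.45, and the median of all probes moved by 0.27. In the authors' values, taken as log2 of the value plus 1, ssc-miR-212 turned to -0.36. The call for ssc-miR-212 under the scaling came from a probe that was at background on every array, with the empty spots higher on every paced array.

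**Figure D4:**
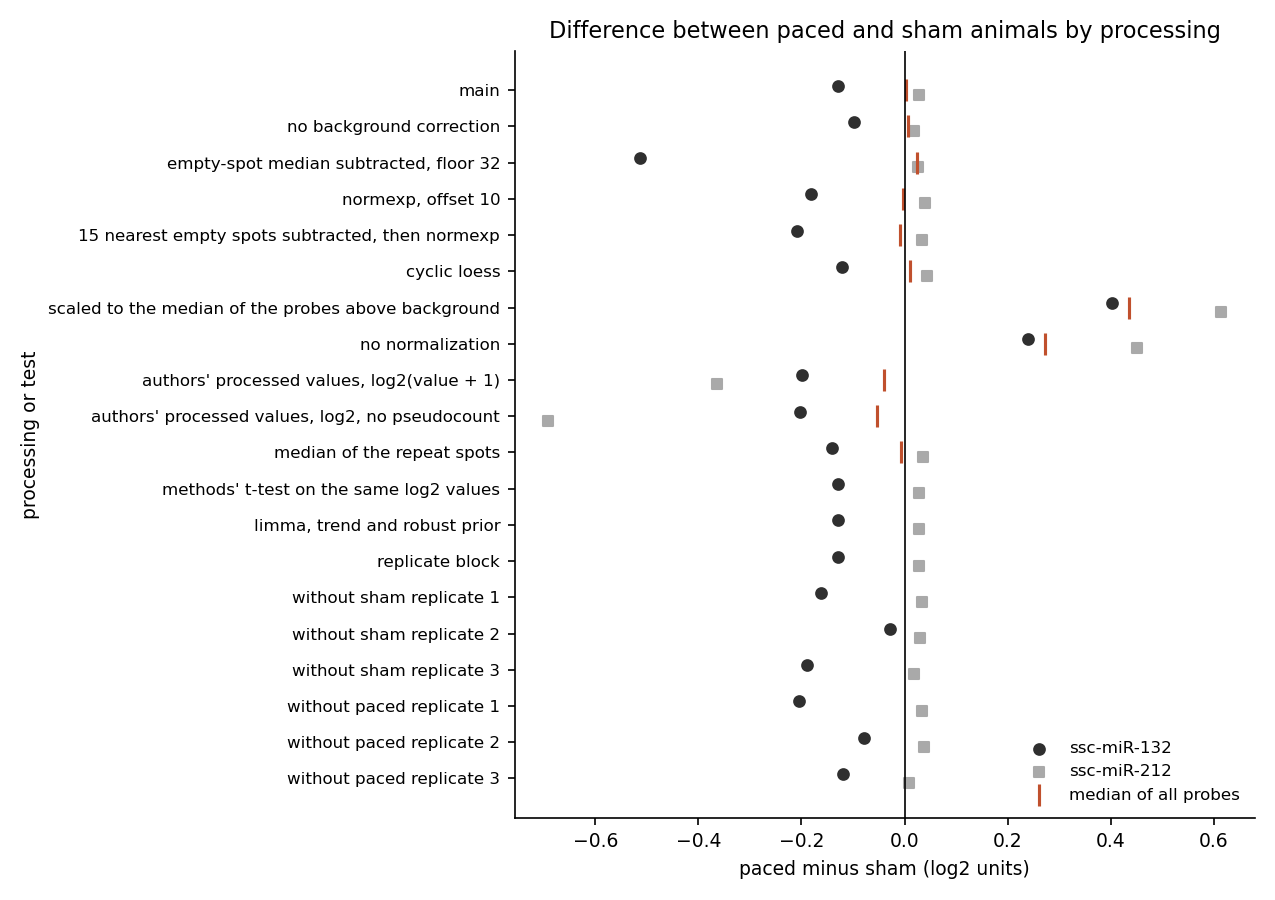
Paced minus sham difference (log2 units) of ssc-miR-132 (dark circles) and ssc-miR-212 (grey squares) under each processing or test, with an orange tick at the median of all probes. Both move right together with the tick under scaling to the median of the probes above background and under no normalization, and ssc-miR-212 lies left of 0 in the authors' values.

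Because the hairpins share a transcript, their values were compared within each array. The difference between the normalized values of ssc-miR-132 and ssc-miR-212 was 0.62, 0.90 and 0.60 in sham 1, 2 and 3 and 0.69, 0.47 and 0.49 in paced 1, 2 and 3. It is used here only to ask whether the miRNAs moved alike, since probe brightness differs between sequences. Its paced minus sham difference was -0.16 (exact permutation test, two-sided, p = 0.3, where 0.1 is the smallest p possible). Paced 1 lay among the sham animals, so the groups overlapped.

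Across the 6 animals, the normalized values of ssc-miR-132 and ssc-miR-212 did not rise and fall together. Pearson's r was -0.14 (exact permutation test, p = 0.761, adjusted 0.803) and Spearman's rho was 0.14 (exact permutation test, p = 0.803, adjusted 0.803). Without sham 2 and paced 2, the animals farthest from the median of ssc-miR-132, r was -0.32. The deviations from the group means correlated with r = 0.17. With no normalization r was 0.93, and with scaling to the median of the probes above background it was 0.90, with the empty spots brighter on every paced array. The part of that background in these coefficients was not tested. With ssc-miR-212 at background on every array, these coefficients say nothing of the transcript.

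Other miRNA pairs that are known to come from shared transcripts were taken for comparison. Whether the members of these pairs also cross-react on the array was not tested. The measure is Pearson's r of the deviations from the group means over the same 6 arrays, given as a description. Endothelial and smooth muscle-linked miR-221-3p and miR-222 reached 0.97, and miR-17-5p and miR-20a of the proliferative miR-17-92 cluster 0.96. The fibroblast-linked pair miR-199a-3p and miR-214 gave 0.68, and smooth muscle miR-143-3p and miR-145-5p gave 0.61. For miR-23b and miR-27b-3p the value was 0.28. These 5 pairs, whose members were above background on all 6 arrays, had a median of 0.68.

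In the other 3 comparison pairs at least 1 member was not above background on every array. Erythroid miR-451 was above background on 6 arrays and its partner miR-144 on 0, with r = 0.39. For miR-424-5p, above background on 5 arrays, and miR-503, on 0, r was -0.22. The pair miR-195 and miR-497, seen on 6 and 5 arrays, gave 0.64. The value of 0.17 for ssc-miR-132 and ssc-miR-212, seen on 2 and 0 arrays, lay below all of the comparison pairs except miR-424-5p and miR-503.

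**Figure D5:**
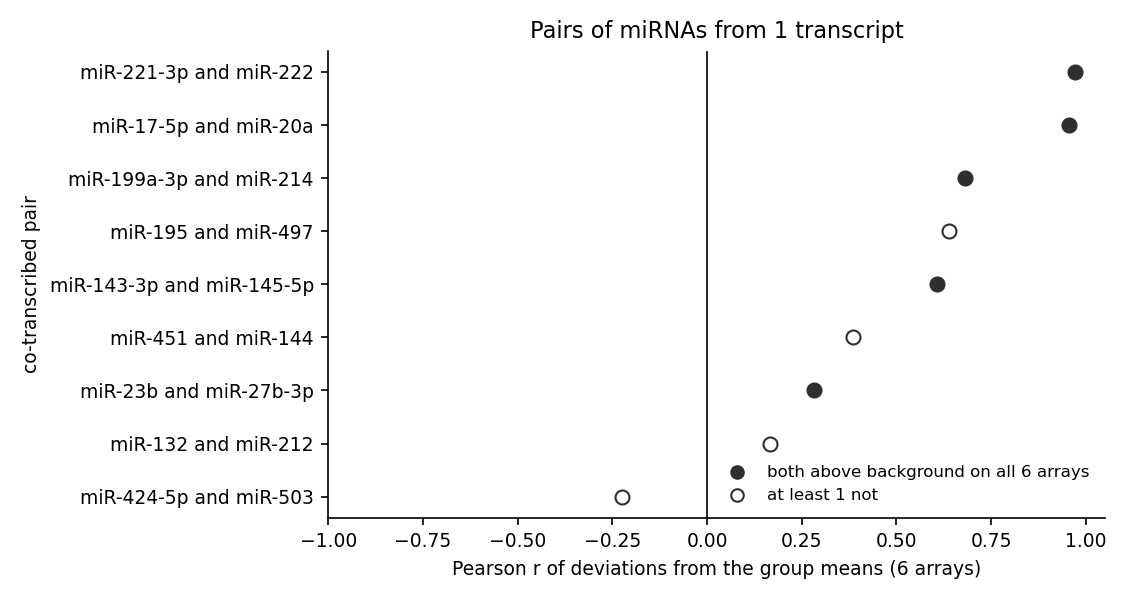
Pearson's r of the deviations from the group means over the 6 arrays for pairs of miRNAs from shared transcripts. Filled circles are pairs above background on all 6 arrays and open circles pairs with at least 1 member that was not; ssc-miR-132 with ssc-miR-212 stands at 0.17, and the filled circles run from 0.28 to 0.97.

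The probes most like ssc-miR-132 across the 6 arrays were sought among the 151 probes above background on at least 3 arrays. They were miR-92a (Pearson's r = 0.92), a member of the miR-17-92 cluster, miR-145-5p (r = 0.90), a smooth muscle miRNA, and miR-423-5p (r = 0.88). Normalized miR-92a was 11.77, 11.90 and 11.75 in the sham animals and 11.88, 11.65 and 11.74 in the paced animals. All 3 were above background on all 6 arrays, and sham 2 had the highest value of each, as it had for ssc-miR-132. Within groups their r with ssc-miR-132 was 0.93, 0.87 and 0.94. For ssc-miR-212 the same search gave miR-155-5p (r = 0.87), a leukocyte miRNA linked to the angiotensin receptor, miR-21 (r = 0.73), linked to fibrosis, and miR-4331 (r = 0.63). In miR-155-5p, as in ssc-miR-212, paced 3 was highest, at 8.41 against 7.87 to 8.08 in the other animals. The coefficients rest on 6 arrays and on the best of many probes, and no p is attached to them. Those for ssc-miR-212 rank probes by likeness to values at background. Those for ssc-miR-132 share this limit in part, since its probe was well above background on 2 of the 6 arrays. Its second-highest normalized value came from paced 1, where its spots lay below the empty-spot median.

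Other miRNAs known for links to angiotensin signalling were read from 9 probes for the miRNAs of this list. No probe of that name stood on the array for miR-410 and miR-483. Of the 9, 0 were higher and 1 was lower in paced animals at an unadjusted limma p of 0.05, and 0 passed adjustment. The lower probe was miR-143-3p, a smooth muscle miRNA, at -0.32 (SE 0.10, adjusted p = 0.323 in limma). The profibrotic miR-21 had a difference of 0.37 (SE 0.28, adjusted p = 0.670 in limma), and miR-155-3p one of 0.09 (adjusted p = 0.705 in limma). The miR-155-3p probe was above background on 0 arrays. The paper reports miR-21 as higher after pacing by qRT-PCR, and did not judge it from its arrays because replicates varied. The median over the list was 0.05, next to 0.00 over all probes.

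MiRNAs known to promote cardiomyocyte growth were read from 15 probes, 10 of them above background on all arrays. All lists were matched by name with any arm, so a probe need not read the arm with the known role. At the unadjusted p, 0 were higher and 1 was lower, and 0 passed adjustment. The lower one was miR-24-2-5p, from the other arm than miR-24-3p, at -0.39 (SE 0.09, adjusted p = 0.134 in limma). It was above background on 3 arrays, and miR-24-3p, above background on 6, differed by 0.12. The next lowest p values of the list belonged to miR-199a-5p, at -0.20 (adjusted p = 0.601 in limma), and to miR-21. Over the 15 probes the median difference was 0.01.

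MiRNAs known to restrain growth were read from 20 probes, of which 12 were above background on all arrays. Among them 0 were higher and 2 were lower at the unadjusted p, and 0 passed adjustment. The lower ones were miR-30c-3p at -0.25 (adjusted p = 0.222 in limma) and miR-30c-1-3p at -0.18 (adjusted p = 0.407 in limma), both from miR-30c hairpins. Both were above background on 0 arrays, and miR-30c-5p, above background on 6, differed by -0.07. The opposite arm of muscle miR-133a, miR-133a-5p, stood at -0.34 (adjusted p = 0.470 in limma). The list median was -0.01. The shares of 1 in 15, 2 in 20 and 1 in 9 probes stand against 10.6% of all probes.

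Markers of the cells that the LA holds were set beside these values. Their calls at the unadjusted p stand against the 10.6% of all 322 probes that passed it. Of the 7 probes for cardiomyocyte miRNAs (miR-1, miR-133a, miR-133b, miR-208b and miR-499), 5 were above background on all arrays and 0 passed the unadjusted p. Of the 6 probes for neuronal miRNAs, 5 were above background on no array, among them miR-124a, miR-9 and miR-137, and miR-128, above background on all, was lower in paced animals at the unadjusted p (-0.21, adjusted p = 0.399 in limma). The probes of leukocytes (8) and fibroblasts (3) had 0 at the unadjusted p. Of the 2 endothelial probes, miR-126-5p, above background on 0 arrays, was higher at the unadjusted p (0.37, adjusted p = 0.357 in limma), and miR-126-3p, above background on all, differed by -0.02. Of the 4 smooth muscle probes, miR-143-3p was lower at the unadjusted p, with the value given above. The groups stood clear of each other for miR-128, miR-129a, miR-126-5p, miR-143-3p and, among red cell markers, miR-486. Over all probes 17.4% did so, and miR-129a was above background on 0 arrays. Red cell miR-486 was lower in paced animals at the unadjusted p, with a difference of -0.70 (adjusted p = 0.134 in limma). The paper lists miR-486 as reported in mouse skeletal muscle. The summed linear value of the 3 red cell probes was 12199 to 17089 in sham and 8241 to 12293 in paced animals. The brightest of the 3 was miR-451, with a mean log2 value of 13.5 against 8.43 for miR-486 and 6.74 for miR-144. MiR-451 differed by -0.37 (adjusted p = 0.511 in limma) with overlapping groups, and miR-144, above background on 0 arrays, differed by 0.01. The part of these cell markers in the values of ssc-miR-132 and ssc-miR-212 was not tested.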

How the data were processed

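LA RNA from 3 sham and 3 paced pigs was hybridized to 6 arrays, and groups and replicate numbers were taken from the labels. The authors deposited scanner intensity values for each spot (3968 spots, 1070 of them controls, background included, not normalized) and processed intensity values per probe, whose background and normalization methods are not given in the sources used here. Scanner intensities of all spots were corrected with normexp (offset 50), control spots were dropped, log2 values were quantile-normalized and the repeat spots averaged (R 4.3.3, limma 3.58.1). Groups were compared with limma (lmFit, eBayes) over 322 probes, with Benjamini-Hochberg adjustment. The fit alone was tried on simulated log2 values, which did not cover the background correction or the normalization. The labels name separate animals, and the number of arrays limits the precision.

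For a probe above background on no array of a group, the bound sets the brighter group's mean against the higher of the probe's own signal and the lowest signal of any probe above background. Target pairing was computed with RNAduplex (ViennaRNA 2.7.2). Named miRNAs are both members, the 3 probes most like each, fixed co-transcribed pairs, up to 3 probes of lowest p per list, and cell type markers. The sequence neighbours were named after their distances and energies were seen. Members, lists and tests were chosen with earlier results of these data known. Alternatives were other background corrections, normalizations, filters, spot summaries and tests, the authors' values, the replicate block, and each animal left out. Plots were made in matplotlib 3.10.9 (Python 3.11.15).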

Additional observations from a re-analysis of the deposited data

How the results depend on the processing

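The difference of ssc-miR-132 kept its sign and its side of the threshold in 18 of 20 alternatives and that of ssc-miR-212 in 16 of 20, with adjusted limma or t-test p from 0.0594 to 0.968 and from 0.00441 to 0.985. The t-test on the same log2 values, the limma trend and robust prior, and the replicate block reuse the main differences. Their signs were therefore fixed, and only the p could change. Scaling to the median of the probes above background gave 0.40 and 0.61 for ssc-miR-132 and ssc-miR-212, a correlation between them of 0.90, and 181 probes at the unadjusted p, 171 at the adjusted p and 190 without overlap. With no normalization ssc-miR-132 was at 0.24, the correlation was 0.93, and 15 probes passed the unadjusted p and 17 did not overlap. In the authors' values ssc-miR-212 was at -0.36 (log2 of the value plus 1), -0.69 (no pseudocount) and -0.60 (linear units, where ssc-miR-132 was at -9.93), and the contrast of both miRNAs was 0.16 and 0.49 on the log2 scales. Subtraction of the empty-spot median with a floor of 32 gave ssc-miR-132 its lowest value on a log2 scale, -0.51 (adjusted p = 0.580 in limma). Among the 126 probes above background on all arrays of a group, 5 passed the unadjusted p and 8 did not overlap, and neither ssc-miR-132 nor ssc-miR-212 was among them. Deviations from the group means correlated with r = 0.17. The cause of these shifts was not tested.

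With each animal left out in turn, ssc-miR-132 ran from -0.21 to -0.03, ssc-miR-212 from 0.01 to 0.04 and the contrast from -0.24 to -0.06. Probes at the unadjusted p then ran from 19 (without sham 2) to 67 (without paced 1), at the adjusted p from 0 to 9 (without paced 1), and without overlap from 74 to 126. Deviations of same-numbered animals correlated with r of 0.17, -0.04 and 0.13. Of the 6 arrays, 3 correlated best with the array of their own number in the other group. With so few arrays these values cannot decide whether the numbers pair the animals. With the replicate block the differences of ssc-miR-132 and ssc-miR-212 were -0.13 and 0.03, with 33 and 0 probes at the unadjusted and adjusted p.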
